A study of Mus musculus with 3 samples.

Results

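Col6a4, Col6a5 and Col6a6 lie side by side on mouse chromosome 9, and the array probes named for these 3 genes, together with every probe from 103.3 to 107.0 Mb of that chromosome (mm9), are described here. The rule gave 310 probes of the 170293 that were measured on all 3 arrays, and all 29 collagen VI probes fell inside this 3.7 Mb stretch: 12 in Col6a6, 7 in Col6a5 and 10 in Col6a4. The stretch was selected on the low levels of array 1 there in earlier results of these arrays, so the differences between array 1 and arrays 2 and 3 are given as a description and without a test. Array comparative genomic hybridisation, which reads DNA copy number and any change in the DNA under a probe from the brightness of a spot, had been run on neurosphere lines, free-floating cultures of tumour cells, from mouse tumours that had become resistant to an inhibitor of the receptor CSF-1R. Line DNA carried Cy5 and mouse liver DNA carried Cy3, the same dyes on all 3 arrays, and all arrays lay on 1 slide.

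The 3 lines form 1 group, grown for at most 3 passages. Line 1 and its liver have an animal number of their own, and lines 2 and 3 share another animal number and the same liver label, so the 3 arrays hold DNA of 2 animals by the labels. The labels do not say whether lines 2 and 3 came from 1 tumour or 1 DNA extract. The strain, genotype, sex and age of the mice and the name of the inhibitor are not given in the sources used here. Because animal 1 was hybridised on array 1 and nowhere else, a difference of that array and a difference of that animal cannot be told apart by the comparison itself, and p-values over lines measure only the spread between these 3 arrays.

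Collagen VI is a protein of the extracellular matrix that forms beaded filaments next to basement membranes in muscle, skin, nerve and vessel walls. Its chains join as trimers in which a Col6a1 and a Col6a2 chain pair with 1 longer chain, encoded by Col6a3 or by its relatives Col6a4, Col6a5 and Col6a6, each carrying many von Willebrand factor A domains. Cspg4, known as NG2 and carried by oligodendrocyte precursors and pericytes, is a cell surface receptor for collagen VI. In humans COL6A4 is broken by a chromosome rearrangement, whereas the mouse keeps all 3 genes in a row.

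The arrays' probes are DNA sequences of up to 60 bases, spaced by a median of 10687 bases in the stretch, so each one reports on a short piece of a gene. The sequences that carry the pattern are given below from the deposited files, with their mm9 positions on chromosome 9. They are the 2 collagen VI probes that read low on array 1 in both kinds of DNA, a neighbour of each that did not, the collagen VI probe with the largest difference upwards, a Col6a5 probe, and the 2 probes with the largest differences in the stretch. Capitals mark CG pairs, and the strand printed is that of the file, which does not name it.
Col6a6, chr9:105681148-105681207, low on array 1: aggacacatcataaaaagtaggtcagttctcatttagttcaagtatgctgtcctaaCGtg
Col6a6, chr9:105670417-105670476, its neighbour: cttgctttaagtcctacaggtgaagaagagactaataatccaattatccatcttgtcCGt
Col6a5, chr9:105781926-105781985, close to level: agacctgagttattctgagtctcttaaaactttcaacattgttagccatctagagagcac
Col6a4, chr9:105960176-105960235, higher on array 1: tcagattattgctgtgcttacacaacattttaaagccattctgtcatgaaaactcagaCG
Col6a4, chr9:105978202-105978261, neighbour of the low probe: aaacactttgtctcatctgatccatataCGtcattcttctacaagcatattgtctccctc
Col6a4, chr9:105995024-105995083, low on array 1: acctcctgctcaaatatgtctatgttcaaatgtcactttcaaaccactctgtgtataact
Tmem108, chr9:103405535-103405594, largest difference of the stretch: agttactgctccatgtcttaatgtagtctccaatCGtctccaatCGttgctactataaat
no gene name, chr9:104363112-104363171, next largest: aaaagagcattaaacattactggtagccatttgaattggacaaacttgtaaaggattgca

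Col6a6 read lowest on array 1 of the 3 genes relative to arrays 2 and 3. Levels are log2 signals centred on the autosomal median of each array and channel. The gene's mean over its 12 probes in liver DNA was -0.37 on array 1, 0.028 on array 2 and 0.11 on array 3, and in line DNA it was -0.30, 0.088 and 0.072. Array 1 was thus below both other arrays, which lay close together, in each channel. The difference, array 1 minus the mean of arrays 2 and 3, was -0.44 in liver (SD 0.48 over 12 probes) and -0.38 in line DNA (SD 0.42), while arrays 2 and 3 differed from each other by a mean of -0.087 in liver (SD 0.082). Of the 12 probes, 9 lay below both other arrays in liver and 10 in line DNA. With normexp background correction the liver difference was -0.27.

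The shift was not even along Col6a6. The first 2 probes, at its low-coordinate end, had liver differences of 0.054 and -0.043, and the last 2 had -0.16 and 0.049. The probe at 105681148 read -1.30 in liver on array 1 against 0.015 and 0.054 on arrays 2 and 3, and -1.62 in line DNA against -0.003 and -0.11. This probe was low on array 1 in both channels by more than 1 log2 unit, and its neighbours on either side had differences of -0.14 and -0.36 in liver and -0.32 and -0.47 in line DNA. The probe at 105617366 differed more in liver than in line DNA: it read -0.35 on array 1 against 0.78 and 0.85 in liver, and 0.26 against 0.68 and 0.75 in line DNA. Probes at 105642228 and 105650956 showed the same order, with liver differences of -0.88 and -0.74 and line differences of -0.44 and -0.18. Without the probe at 105681148 the gene's remaining 11 probes had mean differences of -0.36 in liver (SD 0.40) and -0.27 in line DNA (SD 0.20).

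Col6a5, the middle gene, showed no such shift. Its mean in liver DNA was 0.34, 0.24 and 0.18 on arrays 1, 2 and 3, and in line DNA it was 0.030, 0.13 and 0.024. Array 1 was the highest of the 3 in liver and lay between the other arrays in line DNA. The differences over its 7 probes were 0.13 in liver (SD 0.12) and -0.045 in line DNA (SD 0.11), and no probe was below both other arrays by 0.3 in either channel. The direction in line DNA turned to 0.0056 without array 2 and to 0.011 with normexp background correction. The widest single difference was 0.34 in liver, at the probe that starts at 105839638, where the array levels were 1.83, 1.60 and 1.38.

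Col6a4 was mixed. Its mean in liver DNA was -0.67 on array 1 against -0.42 and -0.45 on arrays 2 and 3, and in line DNA it was -0.52 against -0.34 and -0.42. The differences over 10 probes were -0.24 in liver (SD 0.67) and -0.14 in line DNA (SD 0.39), and the medians over probes, -0.011 and -0.028, were close to 0. The probe at 105995024, the last of the gene, read -1.35 in liver on array 1 against 0.17 and 0.41 on arrays 2 and 3, and -0.79 against 0.19 and 0.22 in line DNA. Without it the mean differences of the other 9 probes were -0.081 in liver and -0.040 in line DNA. Differences below -0.3 in both channels were also found at 105921562 (liver -1.09, line -0.51) and 105932671 (liver -0.51, line -0.40). The probe at 105960176 was higher on array 1, with liver levels of -0.79 against -1.47 and -1.43 and line levels of -1.24 against -1.43 and -1.57. The Col6a4 liver difference was -0.0023 with normexp background correction.

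**Figure D1:**
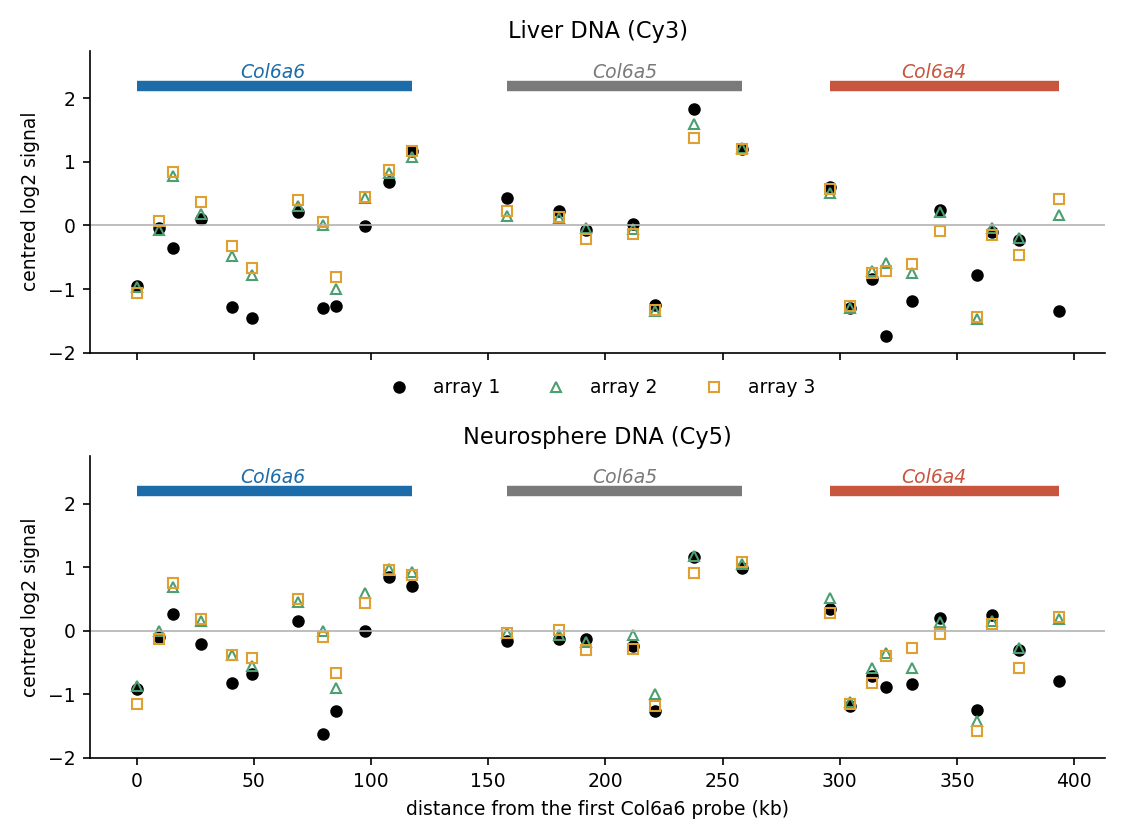
Centred log2 signal (vertical axis) of the 29 collagen VI probes by distance in kb from the first Col6a6 probe, in liver DNA (top) and line DNA (bottom), with 1 symbol for each array and bars over the span of each gene's probes. Array 1 lies below arrays 2 and 3 at most Col6a6 probes and at single Col6a4 probes, and the 3 arrays lie close together over Col6a5.

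A probe is called low here when array 1 was below both arrays 2 and 3 by at least 0.5 on the log2 scale in both channels, and high when it was above both by as much. Of the 29 collagen VI probes, 2 were low, those at 105681148 in Col6a6 and 105995024 in Col6a4, and 0 were high, where 0.336% of all 161449 autosomal probes were low and 0.289% were high. At a threshold of 0.3 the count of low collagen VI probes was 6, with 4 in Col6a6, 2 in Col6a4 and 0 in Col6a5, and at 1 it was 1. Of all 161449 autosomal probes, 1462 were low at 0.3 and 94 at 1. These calls use the same contrast that picked the stretch, so nothing is read from their number.

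Over the whole stretch 23 of 310 probes, or 7.42%, were low and 1 was high. In the 641 other autosomal windows of 3.7 Mb with at least 100 probes the share ran from 0 to 3.07%, which is given for scale only, since the stretch was selected on this contrast. The low probes lay singly: 19 of the 23 had no low neighbour, and their neighbours that were not low had mean differences of 0.012 in liver and -0.031 in line DNA. The 287 other probes of the stretch had mean differences of -0.042 and -0.050, against 0.0012 and -0.00011 on the autosomes elsewhere. Splitting the probes by the call itself leaves the remainder nearer to 0. Differences were below 0 in both channels at 42.3% of the probes of the stretch, the 23 low probes included, and at 27.5% of those elsewhere on the autosomes.

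The mean over all 310 probes was -0.13 in liver (SD 0.55) and -0.14 in line DNA (SD 0.46). Without the Tmem108 probe at 103405535, both means were -0.12. The liver mean turned to 0.027 with normexp background correction, which left the line mean at -0.061, so the direction of the stretch as a whole in liver DNA depends on that step. The count of low probes was 17 in the stretch under normexp and 352 on all autosomes.

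The mean differences of the 1 Mb on either side lay between -0.017 and 0.012. Low probes numbered 0 of 83 before the stretch and 2 of 99, or 2.02%, after it. Over 5 Mb the share was above the 0.336% of the autosomes on both sides: 5 of 378 probes before the stretch were low, all 5 outside the slide quadrant of low rows and columns that is given with the spot positions, and 6 of 444 after it, of which 1 was outside. At the edges of the rule, the last probe outside, at 103294650, had differences of 0.041 in liver and -0.085 in line DNA, and the first inside, at 103307410, had 0.057 and -0.16. The last probe inside, at 106994941 in Dock3, had -1.65 and -1.04, and the first outside, at 107005014 in the same gene, had -0.021 and 0.31.

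**Figure D2:**
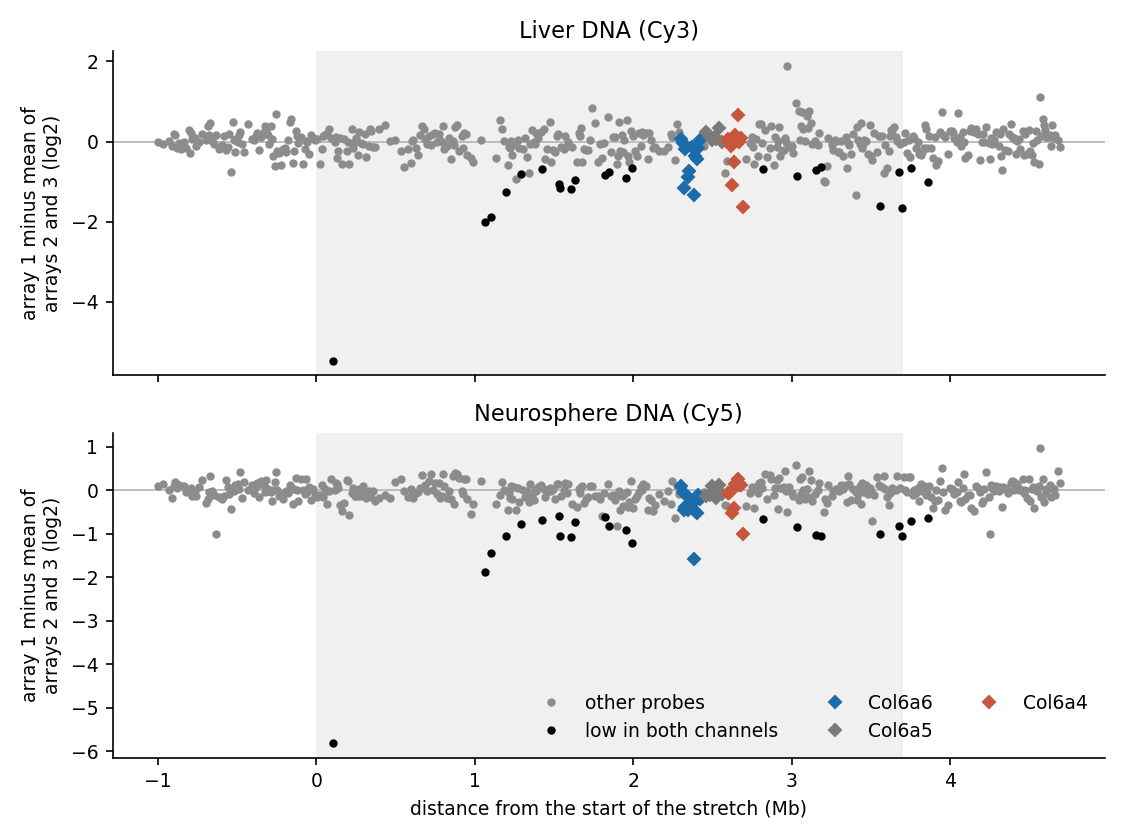
Difference of array 1 from the mean of arrays 2 and 3 (log2, vertical axis) by distance in Mb from the start of the stretch, shaded, with 1 Mb on each side, in liver DNA (top) and line DNA (bottom). Low probes in black and collagen VI probes in colour are scattered among probes near 0, and the Tmem108 probe lies below -5 in both channels.

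The differences in liver and in line DNA went together over the stretch. This cannot be tested here, since a low call needs both channels and the stretch was selected on these differences. Across the 310 probes the differences in the 2 channels had a correlation of 0.80, or 0.68 without the Tmem108 probe, against a median of 0.32 over the 641 other windows, whose highest value was 0.67. Probes of 1 array share their spots, their depth of signal and the stretch, which was selected on the same contrast, so this correlation is only a description. Some probes differed far more in liver, such as those at 106507949 (liver -1.02, line -0.19) and 106702178 (liver -1.32, line -0.027). The probe at 106270533 had opposite signs (liver 1.90, line -0.49). Both differences were below 0 at 42.3% of the probes of the stretch and above 0 at 25.5%. For the 23 low probes, which were called on both channels, the mean line over liver ratio was 0.051 in line 1 (SD 0.35), -0.0040 in line 2 (SD 0.21) and -0.053 in line 3 (SD 0.21). Within the collagen VI genes the channel correlation was 0.97 over the 10 probes of Col6a4, 0.74 over the 12 of Col6a6 and 0.28 over the 7 of Col6a5.

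**Figure D3:**
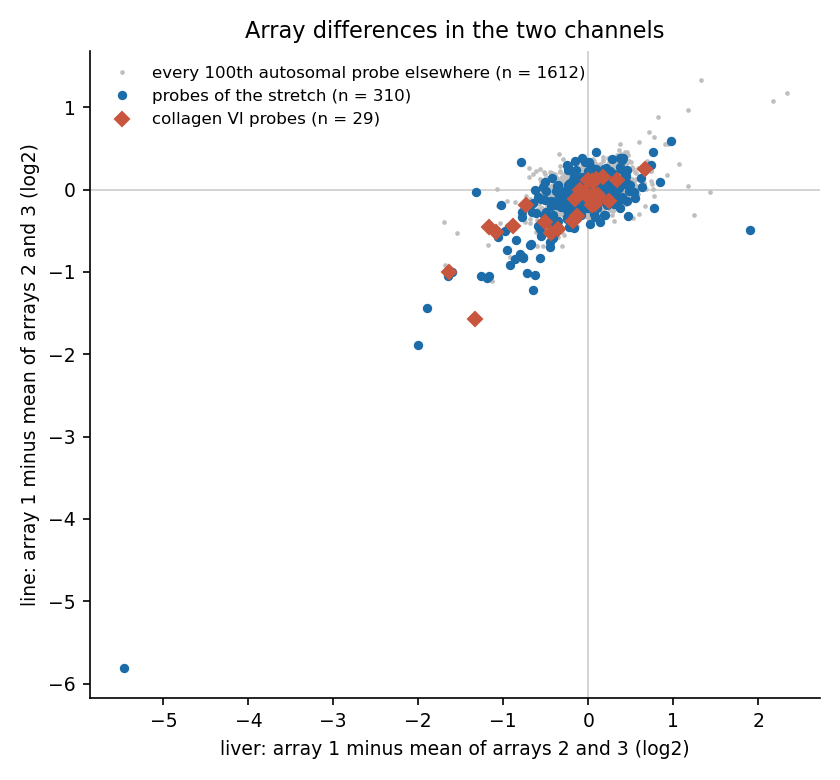
Array difference in line DNA (vertical axis, log2) against that in liver DNA (horizontal axis, log2) for each probe of the stretch, with the 29 collagen VI probes as diamonds and every 100th autosomal probe elsewhere (1612 probes) in grey. The low probes of the stretch, the 2 of the collagen VI genes among them, lie along the lower left, where both differences are below 0.

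Both channels are read from the same spot, so the place of the low probes on the slide was looked up. Elsewhere on the autosomes 479 of 520 low probes, 92.1%, lay in the quadrant of array 1 with rows up to 532 and columns up to 85, which held 40219 of the 161139 probes elsewhere on the autosomes. In the stretch 6 of 23 low probes, 26.1%, lay in that quadrant, and so did 26.5% of all its probes. Outside the quadrant 17 of 228 probes of the stretch, 7.46%, were low, against 41 of 120920 elsewhere on the autosomes, 0.0339%. The quadrant was chosen after the positions were seen, and the stretch was selected on low levels of array 1. A higher share of low probes in the stretch is therefore built in, and these shares are a description.

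The collagen VI probes divide on this point. The low Col6a6 probe sat in the quadrant, at row 179 and column 2, and the low Col6a4 probe sat outside it, at row 971 and column 83. The 2 Col6a4 probes at 105921562 and 105932671 and the Col6a6 probe at 105650956 were also inside. Without the quadrant's 7 collagen VI probes, the mean differences of Col6a6 were -0.33 in liver and -0.28 in line DNA, those of Col6a4 were -0.097 and -0.056, and those of Col6a5 were 0.20 and -0.044. The Col6a6 probes at 105617366 and 105642228 lay outside the quadrant, with the values given above. What part the place on the slide has in each single value was not tested.

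**Figure D4:**
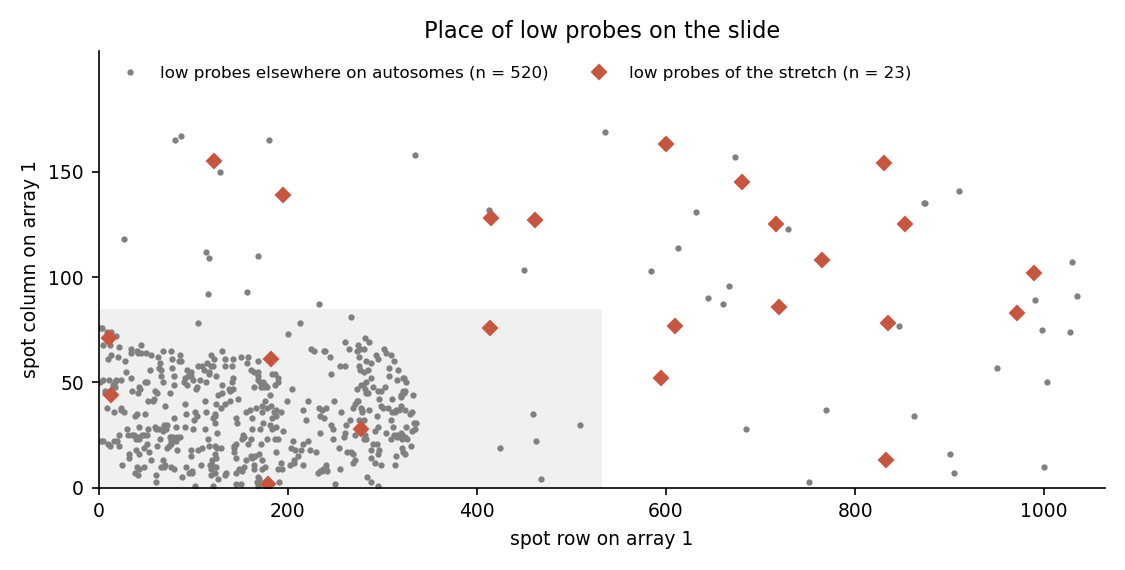
Spot row (horizontal axis) and spot column (vertical axis) on array 1 of every low autosomal probe, with the 23 of the stretch as diamonds, the 520 elsewhere as dots and the quadrant shaded. The dots crowd into the shaded quadrant, and the diamonds are spread over the slide.

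Base composition and the spread between arrays 2 and 3 were similar in low and other probes of the stretch. The GC content of the low probes had a mean of 37.2% (SD 1.81, n = 23) against 37.0% (SD 1.68) in the other 287 probes of the stretch, and they held a mean of 0.30 CG pairs (SD 0.56) against 0.46 (SD 0.67). Arrays 2 and 3 differed from each other at the low probes with an SD of 0.18 in liver and 0.15 in line DNA, and at the other probes with an SD of 0.16 and 0.17. The low probes had a mean log2 level on arrays 2 and 3 of -0.21 (SD 0.81), against -0.090 (SD 0.98). Signal error on array 1, as a percentage of the signal, was higher at the low probes. Its mean was 21.1% (SD 18.9) against 12.7% (SD 4.25) in liver, and 17.8% (SD 18.4) against 11.3% (SD 1.74) in line DNA.

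Low probes fell in 7 of the 37 named genes of the stretch. The share of genes elsewhere with a low probe is not given here, and the stretch was selected on this contrast. Nothing is therefore read from that count. Cpne4, which encodes a calcium-dependent phospholipid-binding copine, held 7 of its 44 probes low, with gene means of -0.24 in liver and -0.17 in line DNA. Nek11, a kinase gene, held 4 of 24, with -0.18 and -0.32. Dock3, a guanine nucleotide exchange factor of neurons, held 3 of its 21 probes inside the stretch, with -0.23 and -0.13. Tmem108, a transmembrane protein gene, and Iqcf3, which has a single probe, held 1 each. Col6a6 had the largest mean difference of the 22 genes with at least 3 probes, and it was larger than that of Cpne4 although it held fewer low probes.

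Array differences took both signs among the genes of the stretch. Among the 22 genes 8 had both means below 0 and 4 had both above. AK015817 had mean differences of 0.29 in liver and 0.089 in line DNA, Acad11, an acyl-CoA dehydrogenase gene, 0.13 and 0.19, and Wdr82 0.050 and 0.064. By the average of both channels, in which opposite signs cancel, the genes nearest to 0 were Vprbp (-0.015 and 0.0033), Dnajc13 (-0.0013 and 0.023), Tex264 (-0.046 and 0.011), Pik3r4 (0.037 and -0.11) and Bfsp2 (0.13 and -0.055), and none of these 5 held a low probe.

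The Tmem108 probe at 103405535 had the largest difference downwards of all 161449 autosomal probes in both channels, -5.47 in liver and -5.81 in line DNA. Its level was -4.51 on array 1 against 0.97 and 0.94 on arrays 2 and 3 in liver, and -4.88 against 0.92 and 0.95 in line DNA. On array 1 it was not well above background in either channel, so its signal was at least 9.27-fold lower there in liver and at least 12.2-fold lower in line DNA, taken against the lowest probe of that array well above background. It lay in the slide quadrant, at row 277 and column 28. The probe with the next largest difference, at 104363112, lay outside it: it read -0.78 against 1.18 and 1.26 in liver and -1.05 against 0.85 and 0.83 in line DNA, and was well above background throughout. In liver DNA alone 3 further low probes, at 104400591, 104904025 and 106994941, were not well above background on array 1, which makes them at least 2.38-, 1.61- and 1.90-fold lower there.

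Segmentation of the mean of both channels found 24 segments on the autosomes, of which 2 reached a mean of 0.2 in size. One of these was in the stretch, 11 probes from 103405535 to 103508085 with a mean of -0.63. Without the Tmem108 probe the other probes of this segment had a mean of -0.13. Segmentation run without that probe still gave 1 called segment overlapping the stretch, whose place is not given here. The collagen VI genes fell in the segment from 103525177 to 107221178, which held 314 probes, had a mean of -0.12 and was not called. No segment edge lay in or between the 3 genes.

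The study's own comparison, line against liver, is taken here as a mean ratio over the 3 arrays. That mean includes array 1, on whose levels the stretch was selected, so it is not independent of the selection. Without line 1 the mean ratio was -0.12 for Col6a5, 0.068 for Col6a4 and 0.024 for Col6a6. In limma over 9495 genes with at least 3 probes, 14.2% were above 0 and 9.97% below 0 at an adjusted p under 0.05. Line DNA always carried Cy5 and liver DNA always Cy3. In these and all later line over liver ratios, a difference of DNA and a difference of dye therefore cannot be told apart. Col6a5 had log2 line over liver ratios of -0.30, -0.10 and -0.14 in lines 1, 2 and 3, all below 0. Its mean was -0.18 ± 0.11 (SD, n = 3), with a limma SE of 0.049 and an adjusted p of 0.033. That call was lost without line 2 (adjusted p = 0.062), without line 3 (0.066), with genes of 1 probe or more in the fit (0.078), with lines 2 and 3 averaged as 1 animal (0.081) and with normexp (0.097), and the adjusted p in the other 6 alternative fits lay between 0.017 and 0.039.

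Col6a4 had ratios of 0.16, 0.092 and 0.043, all above 0, with a mean of 0.099 ± 0.060 (SD, n = 3) and a limma adjusted p of 0.12. Its mean turned to -0.0076 with normexp and to -0.031 with the deposited value table. Col6a6 had ratios of 0.080, 0.070 and -0.023, on both sides of 0, with a mean of 0.043 ± 0.057 (SD, n = 3) and a limma adjusted p of 0.48. No difference between the 3 genes was tested. Of the 22 genes of the stretch, 1 was above 0 and 5 were below 0 past the threshold, shares to be read against the 14.2% and 9.97% of all genes. The one above was Acpp, a prostatic acid phosphatase gene, with a mean of 0.16 ± 0.074, and those below were Col6a5, AK015817, Atp2c1, Pik3r4 and Tex264, between -0.24 and -0.17.

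**Figure D5:**
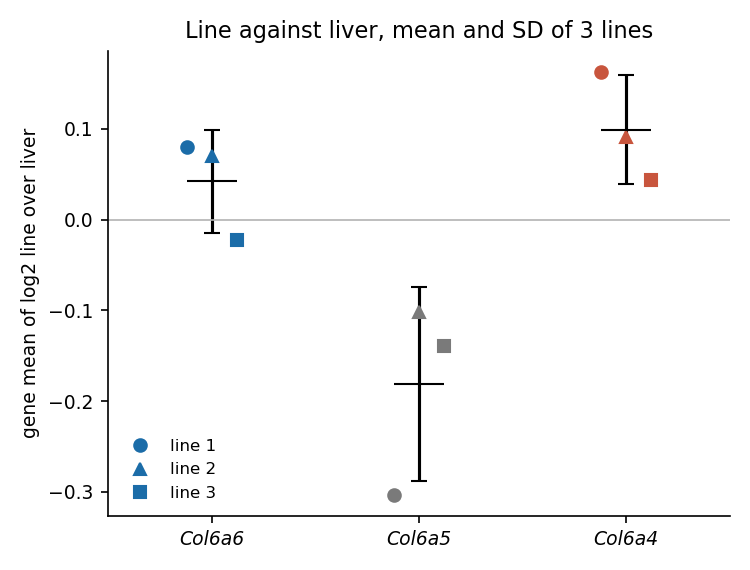
Gene mean of log2 line over liver (vertical axis) for each of the 3 lines, with the mean (horizontal bar) and SD (error bar) of the 3 lines. All 3 lines lie below 0 for Col6a5 and above 0 for Col6a4, and the lines lie on both sides of 0 for Col6a6.

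The genes of the main collagen VI trimer were thinly covered. Col6a1 and Col6a2, on chromosome 10, had 2 probes each, too few for the fit with at least 3 probes, and Col6a3 had none measured here. In the limma fit that took genes with 1 probe or more, Col6a2 had ratios of -0.52, -0.19 and -0.38 (adjusted p = 0.029) and Col6a1 of -0.50, -0.080 and -0.30 (adjusted p = 0.064). Their array differences were 0.44 in liver and 0.14 in line DNA for Col6a1, and 0.11 and -0.12 for Col6a2, with 0 low probes.

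Genes whose products bind collagen VI, genes of collagen processing in general and other collagen genes were set beside the collagen VI genes. The shares over all genes were 14.2% above 0 and 9.97% below 0. Of 14 tested partner genes 1 was above 0, 0 were below and 13 did not pass, with a median ratio of -0.00086 against 0.011 for all genes. The one above was the receptor gene Cspg4 (0.12, 0.32 and 0.46 in lines 1, 2 and 3, adjusted p = 0.014). Of 11 tested collagen processing genes 3 were above 0, the prolyl hydroxylase genes P4ha3 (mean 0.39, adjusted p = 0.0057) and P4ha2 (0.14, 0.040) and the lysyl oxidase gene Loxl1 (0.22, 0.0096), and 0 were below, with a list median of 0.073. Of 32 other collagen genes 2 were above 0, Col28a1 (0.23) and Col16a1 (0.18), and 2 below, Col7a1 (-0.18) and Col8a2 (-0.17), with a median of -0.0038.

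The share of low probes in these lists was near that of the autosomes. The partner genes held 0 low probes of 122 and the processing genes 0 of 104, and the other collagens held 1 of 470, in Col23a1, where 0.336% of all autosomal probes were low. The 1 listed gene with a difference of at least 0.5 in both channels was P4hb, the disulphide isomerase subunit of prolyl hydroxylase, whose single probe was higher on array 1 by 1.49 in liver and 0.81 in line DNA.

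The genes elsewhere on the autosomes whose 6 gene means, centred within each channel, were most like those of each collagen VI gene were found by Euclidean distance among 5686 genes with at least 5 probes. Nearest to Col6a6 were J03549 on chromosome 7 (distance 0.072, levels on arrays 1 to 3 of -0.28, 0.14 and 0.14 in liver and -0.27, 0.13 and 0.13 in line DNA), ENSMUST00000133433, Sspo, Gm10863 and Wdtc1 (distance 0.15). Nearest to Col6a4 were Arhgap39 (0.023), Fmnl3, Lgr6, Adam2 and Fgd5 (0.044), and nearest to Col6a5 were Fam19a5 (0.019), ENSMUST00000101535, ENSMUST00000150506, Hhat and M26410 (0.030). Each of the 5 genes nearest to Col6a6 was farther from it than any of the 5 nearest were from Col6a4 or Col6a5. The distances use the same array levels on which the stretch was selected, so nothing is read from this order.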

How the data were processed

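Neurosphere lines (Cy5) and liver DNA (Cy3) were measured on 3 Agilent arrays, and the members and lists were chosen with earlier results of these data known. The deposited intensity of each spot and channel was made, per the file headers, with Feature Extraction 10.7.3.1 on an mm9 design, using background subtraction, spatial detrending and linear dye normalization. The deposited log10 ratios (Cy5 over Cy3) of the value table were used as an alternative, turned to log2, with their centring not stated. Control spots and outlier marks were left out, 0 spots were saturated, and probes measured on all 3 arrays were kept. Processed signals were taken to log2 and centred on the autosomal median of each array and channel. For genes of 3 or more probes, limma 3.58.1 in R 4.3.3 compared the mean log2 ratio with 0, with Benjamini-Hochberg adjustment. Segments came from penalised changepoints (penalty 10 times log n, at least 10 probes). Segmentation was also run on simulated data with even shifts of neighbouring probes, and limma with gene shifts larger than the collagen VI ratios. Single low probes and ratios of the size given here were not simulated. The number of arrays limits the precision. Genes named were the collagen VI genes, the 10 with the largest and 5 with the smallest array difference in the stretch, list genes past limma or past 0.5 in both channels, and the 5 nearest by pattern; 1 gene that the rule names is not reported here. Gene names are those of the array design. Exon annotation and protein sequences were not used here.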

Additional observations from a re-analysis of the deposited data

How the results depend on the processing

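Array 1 cannot be left out of an array difference, so that setting was not run. The 44 alternative values of the Col6a4 and Col6a6 differences were all below 0. Under normexp the collagen VI liver difference was -0.090, the stretch differences 0.027 in liver and -0.061 in line DNA, the Col6a5 line difference 0.011, the Col6a4 ratio -0.0076, and 0 segments and 0 collagen VI genes passed. The Col6a4 ratio was -0.031 with the deposited table. The collagen VI liver difference was -0.22 after quantile and -0.22 after scale normalization, the latter giving -0.12 for the stretch. Without dim probes the stretch differences were -0.095 and -0.10, with 0 segments. Medians over probes gave -0.017 and -0.11 for collagen VI and -0.050 and -0.056 for the stretch. Thresholds of 0.3 and 1 gave 6 and 1 low collagen VI probes and 41 and 5 in the stretch, against 1462 and 94 of all 161449 autosomal probes. Segments numbered 2 at a penalty of 5, 4 at a penalty of 2, 2 at a call threshold of 0.1, and 0 to 1 without array 2 or 3. Collagen VI genes past limma numbered 0 with at least 1 probe per gene, 0 with lines 2 and 3 averaged, and 0 to 1 without 1 line. The Col6a5 line difference without array 2 was 0.0056. Chosen after seeing the data, leaving out the slide quadrant gave -0.15 and -0.16 for collagen VI, -0.11 for the stretch in liver, 1 low collagen VI probe and 0 segments. Leaving out the lowest probe, also chosen after seeing the data, gave -0.12 for the stretch in liver and 1 segment. GC centring changed no such result. Some settings hold fewer probes, and the cause of these changes was not tested. With 1 array of animal 1 there is no replicate of the array difference.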
